A study of Mus musculus with 6 samples.

Results

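Genes for DNA replication, mitosis, chromatin packing and microtubule assembly were measured in single epithelial cells of the mouse jejunum. The members were every gene, present in the tables of both jejunal regions, whose symbol starts with Mcm and a digit, Cenp, Cks, Ccna, Ccnb, Ccnd, Ccne, Cdk and a digit, Smc and a digit, Hmgb, Hmgn, Tuba, Tubb or H2af, together with Pcna, Stmn1, Mki67, Top2a, Ptma, Ran and Ranbp1. Of 5674 genes in both tables, 48 met this rule, which uses names only and no measured value. Of these, 47 passed the minimum for tests between cell classes, a mean of 0.2 counts per 10000 (CP10K), and Cdk9 did not.

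The series sampled the anterior and the posterior jejunum (the 3rd and the 7th of 12 equal pieces of the small intestine) of 3 mice, so each mouse gave both regions. Tests between classes took 1 value per mouse. The main regional tests took the 6 samples without a mouse block, and some SDs are over samples, where stated. No comparison rests on more than 3 animals. The cells of the posterior samples are named middle in the files, and the deposited plate table gives them as posterior jejunum, as the labels do. The animals were 120 days old and of a mixed CD-1:C57BL/6 background. The labels give them no genotype or treatment. Villus and crypt cells were mixed 1:1 after EDTA release, live EpCAM-positive cells were sorted singly into wells, and RNA was counted by MARS-seq, a plate method that counts 3′ ends with unique molecular identifiers (UMIs, one per captured RNA molecule).

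A cell copies its DNA in S phase, when the Mcm helicase unwinds the double helix and PCNA holds the polymerases on it, and divides in M phase, when topoisomerase and condensin untangle and fold the chromosomes and a spindle of tubulin pulls on the centromeres. Cyclin D with Cdk4 starts the cycle in G1, and Cdk1 drives mitosis. H2A variants, HMG proteins and prothymosin set how tightly the DNA is packed, and Ran guides nuclear transport and spindle assembly. In the small intestine, stem and transit-amplifying cells of the crypt divide and the enterocytes, goblet, enteroendocrine and tuft cells that they give rise to leave the cycle.

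Many cell cycle genes carry short promoter words: CCAAT, the site of NF-Y; the CHR (cell cycle genes homology region) TTTGAA or TTCGAA; and E2F sites. Upstream sequences are printed for 7 members that stand for the main results below: Top2a, Cdk1, Hmgb2, Cenpw and Tubb5, whose RNA was higher in crypt progenitor-like cells and in the cells among them that held Top2a, and Mcm6 and Pcna, replication genes whose RNA was higher in progenitor-like cells. Each is the 250 bases before the RefSeq gene start (GRCm38.p6), 5′ to 3′ on the gene's strand, with capitals for every match on either strand to CCAAT, to TTTGAA or TTCGAA, or to the E2F words TTTCCCGC, TTTGCCGC, TTTCGCGC and TTTGGCGC.

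Top2a (chr11:99024190-99024439, minus strand): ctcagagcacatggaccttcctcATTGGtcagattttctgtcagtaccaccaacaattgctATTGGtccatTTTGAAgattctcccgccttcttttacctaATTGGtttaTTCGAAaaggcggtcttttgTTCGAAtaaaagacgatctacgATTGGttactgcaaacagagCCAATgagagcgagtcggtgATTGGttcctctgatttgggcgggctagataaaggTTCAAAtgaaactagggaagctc

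Cdk1 (chr10:69352913-69353162, minus strand): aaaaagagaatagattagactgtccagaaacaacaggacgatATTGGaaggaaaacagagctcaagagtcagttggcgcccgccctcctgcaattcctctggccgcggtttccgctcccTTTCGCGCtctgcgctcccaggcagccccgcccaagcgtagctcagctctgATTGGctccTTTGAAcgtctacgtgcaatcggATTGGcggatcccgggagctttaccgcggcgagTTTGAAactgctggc

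Hmgb2 (chr8:57511593-57511842, plus strand): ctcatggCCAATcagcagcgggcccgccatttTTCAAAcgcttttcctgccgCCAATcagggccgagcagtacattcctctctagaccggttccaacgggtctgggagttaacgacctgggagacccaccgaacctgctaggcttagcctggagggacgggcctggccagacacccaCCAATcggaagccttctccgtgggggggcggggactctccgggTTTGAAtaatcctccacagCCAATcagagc

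Cenpw (chr10:30200541-30200790, minus strand): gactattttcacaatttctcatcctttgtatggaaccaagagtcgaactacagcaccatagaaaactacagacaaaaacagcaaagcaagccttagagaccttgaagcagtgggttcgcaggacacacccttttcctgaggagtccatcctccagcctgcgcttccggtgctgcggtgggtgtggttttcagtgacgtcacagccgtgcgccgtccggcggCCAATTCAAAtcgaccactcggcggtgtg

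Tubb5 (chr17:35838302-35838551, minus strand): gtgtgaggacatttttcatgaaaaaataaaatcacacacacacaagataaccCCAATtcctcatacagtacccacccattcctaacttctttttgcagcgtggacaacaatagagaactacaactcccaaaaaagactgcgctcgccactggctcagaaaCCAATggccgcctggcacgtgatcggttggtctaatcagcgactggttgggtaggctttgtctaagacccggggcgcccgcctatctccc

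Mcm6 (chr1:128359706-128359955, minus strand): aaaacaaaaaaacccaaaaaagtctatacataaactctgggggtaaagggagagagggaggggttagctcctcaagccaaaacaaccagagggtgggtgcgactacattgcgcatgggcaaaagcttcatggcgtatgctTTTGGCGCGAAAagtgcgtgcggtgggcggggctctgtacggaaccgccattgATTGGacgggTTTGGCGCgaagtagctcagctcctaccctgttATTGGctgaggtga

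Pcna (chr2:132253181-132253430, minus strand): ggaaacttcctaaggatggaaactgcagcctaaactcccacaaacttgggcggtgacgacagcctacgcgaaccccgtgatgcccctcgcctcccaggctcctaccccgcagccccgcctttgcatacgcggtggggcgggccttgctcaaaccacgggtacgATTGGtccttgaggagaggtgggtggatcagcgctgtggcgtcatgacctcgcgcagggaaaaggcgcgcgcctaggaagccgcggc

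The Top2a sequence held CCAAT at 6 places and a CHR word at 4, and that of Cdk1 held 3 and 2, with 1 E2F word. Hmgb2 had CCAAT at 4 places and CHR at 2. Cenpw had 1 of each, sharing a base. No CHR word was found in the printed bases of Tubb5 (2 CCAAT), Mcm6 (2 CCAAT and 3 E2F words, some overlapping) or Pcna (1 CCAAT). RefSeq promoters, from 250 bases before to 50 after the start, were matched to 43 of the 48 members, 4 of them through a synonym, and a gene with several was counted if any of its promoters held the word. CCAAT on either strand was present in 26 of the 43 (60.5%), against 41.1% of the promoters of all 27025 genes in the table. E2F words were present in 7 (16.3%), against 2.61% of all promoters, and the CHR words in 10 (23.3%), against 21.7%. Both CCAAT and CHR were found in 9 members (20.9%), against 9.65% of all promoters. Counting words on the gene's strand only, 5 members held both, against 3.46% of all promoters. These counts describe letters and are not bound sites.

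The tables held 2043 cells, 198 to 568 per sample, and 1640578 to 3157105 UMIs per sample. Cells were clustered without the members and other cell cycle genes (103 genes in all), and clusters were named by marker genes. This gave 866 enterocyte-like, 626 goblet-like, 204 crypt progenitor-like, 114 enteroendocrine-like and 38 tuft-like cells, and 195 cells that were left unnamed. Of the 21 progenitor markers used in naming, 7 of them in 1 table only, 12 were raised in the progenitor-like cluster. Raised meant a log2 ratio above 1 to the median cluster, and the median log2 ratio of the 21 was 1.11. In progenitor-like cells the summed level of the 14 progenitor markers in both tables (of 30 listed) was 63.1 to 81.0 CP10K in the 6 samples, against 5.43 to 21.8 in enterocyte-like and 4.28 to 11.5 in goblet-like cells. Enterocyte markers in them summed to 71.9 to 117 CP10K, against 618 to 1365 in enterocyte-like cells, and goblet markers to 22.0 to 116, against 2866 to 4637 in goblet-like cells. Paneth cell markers (12 of 15) summed to 8.33 to 31.0 CP10K in progenitor-like and 51.5 to 198 in goblet-like cells, and the 1 measured T cell marker and the 1 measured stromal marker stayed under 0.7 CP10K in progenitor-like cells. B, plasma and myeloid cell markers had no gene in both tables, and 1 anterior progenitor-like cell of mouse 1 was so high in Igkc, an antibody light chain gene, that the mean of its class was 503 CP10K, and 3.20 without it. Median UMIs per cell were 11274 in progenitor-like, 6902 in enterocyte-like, 2159 in goblet-like and 3450 in enteroendocrine-like cells, so depth moved with class, and its part in the differences was tested only by thinning. Mouse 1 stood apart in both regions: enterocyte-like cells were 18.1% and 13.5% of its cells, against 59.6% to 80% in the other mice, and goblet-like cells were 42.8% and 54.8%, against 7.14% to 16.2%. Most enterocyte-like cells of mouse 1 fell into a cluster whose leading genes included Reg3b, Mt2, Fabp1 and Dmbt1. This cluster, called mixed below, held 76 and 58 cells of mouse 1 and 13 to 26 in each sample of the other mice. In it 9 of 19 enterocyte markers and 2 progenitor markers were raised.

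Crypt progenitor-like cells carried more RNA than enterocyte-like cells of all 3 replication genes, both Ran genes and 3 of 4 HMG genes. The same held for 4 of 6 H2A variant and prothymosin genes, 2 of 5 mitosis and centromere genes and 2 of 7 tubulins. Among 17 genes named for cyclins or CDKs, 4 were higher too. Of 47 members tested, 20 were significantly higher in progenitor-like cells and 2 were lower (limma on log2(CP10K + 0.2), mouse as block, Benjamini-Hochberg adjusted p under 0.05 over 5307 genes). Over all genes tested, 19.2% passed, 9.59% higher and 9.65% lower. The median log2 difference of the members was 1.04, against -0.07 over all genes, and 37 of the 47 lay above 0. The summed level of the 20 higher members was 67.4 to 85.8 CP10K in the 6 progenitor-like profiles and 7.29 to 22.0 in the 6 enterocyte-like profiles, the highest being the anterior sample of mouse 1. In 18 of the 22 members called, the 6 values of one class did not overlap the 6 of the other, against 743 of all 1021 genes called (72.8%); over all genes tested 20.4% did not overlap, and over all members tested 23 of 47. The number of members called fell most without mouse 2: 8 passed (Tuba1b, Tubb5, Ptma, Hmgb2, Top2a, Cdk1, H2afz and Mcm6), while all 22 kept their direction. Without mouse 1, 18 were higher and 1 lower, and without the mixed enterocyte-like cluster 22 and 4. Leaving out cells of over 100 Igkc CP10K gave 20 and 2. Shares of all genes called in these fits are not given here, so these counts have no background beside them. After median-ratio scaling of the class means, which moved the median of all genes to -0.23, 17 members were higher and 2 lower, beside 257 higher and 391 lower genes in all.

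**Figure D1:**
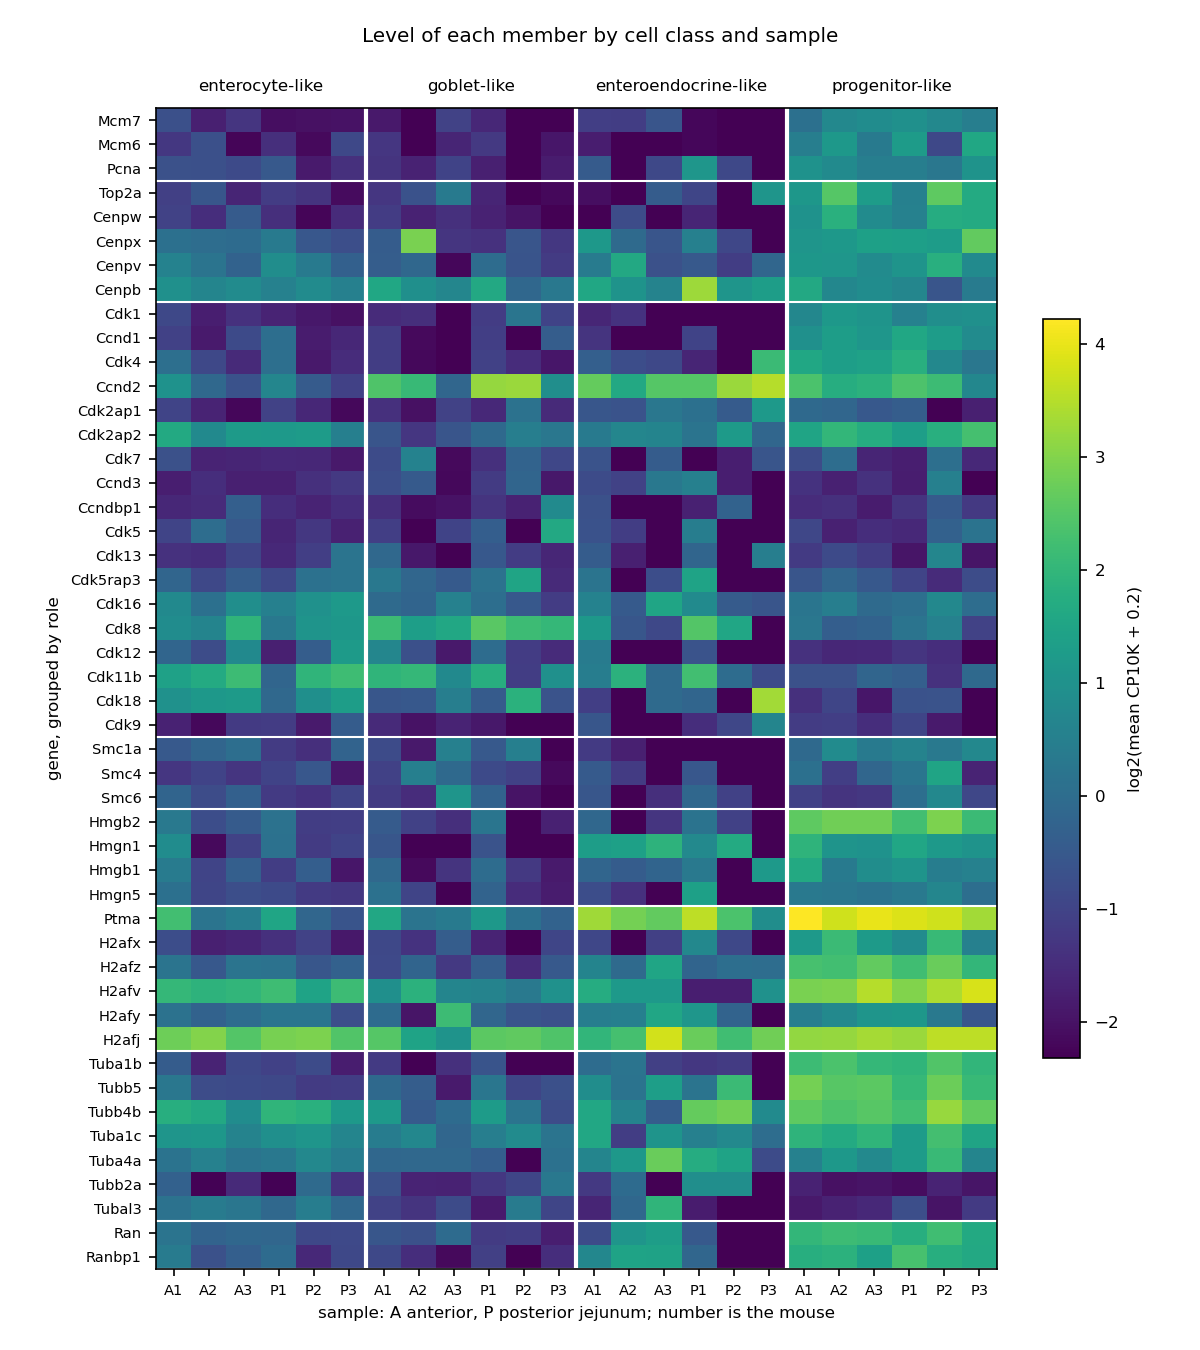
Mean log2 level (CP10K + 0.2) of each member (rows, by role) in each class and sample (columns). Yellow is high and dark blue low, and the progenitor-like columns are lighter than the enterocyte-like ones for the replication, HMG and Ran rows but not for Cdk11b and Cdk18.

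All 3 replication genes rose in progenitor-like cells, though Mcm6 and Mcm7, like Cdk1 and H2afx below, had an enterocyte-like mean under the minimum of 0.2 CP10K and could be tested only because they were higher in another class. Of the 40 members tested with an enterocyte-like mean of at least 0.2 CP10K, 16 were higher. The share of all genes with such a mean that were higher was not counted, so this count has no matching background. Mcm7, a subunit of the Mcm helicase, was at 0.868 to 1.76 CP10K (median 1.45) in progenitor-like and 0.0364 to 0.409 (median 0.0723) in enterocyte-like cells of the 6 samples, with no overlap (log2 difference 2.29, SE 0.45, adjusted p = 0.0011). Mcm6, another subunit of the ring, was at 0.336 to 2.8 CP10K (median 1.61) and 0.0133 to 0.409 (median 0.193; log2 difference 2.11, SE 0.41, adjusted p = 0.001). Its lowest progenitor-like value, in the posterior sample of mouse 2, fell inside the enterocyte-like range. For Pcna, the sliding clamp of the polymerases, the values were 1.0 to 1.87 CP10K (median 1.38) and 0.0795 to 0.511 (median 0.377), again without overlap (log2 difference 1.69, SE 0.51, adjusted p = 0.023). The call of Pcna held in 1 of the 3 fits that left out a mouse (adjusted p up to 0.21).

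Of 5 mitosis and centromere genes, Top2a and Cenpw rose. Top2a, the topoisomerase that unlinks sister chromatids, was 1.99, 5.45 and 2.26 CP10K in the anterior samples of mice 1, 2 and 3 and 1.25, 5.9 and 3.0 in the posterior ones. In enterocyte-like cells it was at 0.0275 to 0.472 (median 0.218), below every progenitor-like value (log2 difference 2.95, SE 0.59, adjusted p = 0.0012). Both samples of mouse 2 had the highest progenitor-like levels of Top2a and both of mouse 1 the lowest. Cenpw, a histone-fold protein of the inner kinetochore, was at 1.27 to 3.38 CP10K (median 2.4) against 0.0112 to 0.536 (median 0.166; log2 difference 2.63, SE 0.49, adjusted p = 0.00077). Cenpx, a histone-fold partner at centromeres and stalled forks, had an adjusted p of 0.054 in this limma fit (log2 difference 1.64). Cenpb, which binds a satellite DNA box whether or not a cell divides, had a log2 difference of -0.11 with the ranges overlapping.

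The cyclin and CDK group was mixed: 4 of 17 tested rose and 2 fell, and its median log2 difference was 0.05. It was formed by gene name and includes Ccndbp1, Cdk2ap1, Cdk2ap2 and Cdk5rap3, which are not cyclins or CDKs themselves. Their log2 differences were 0.05, 0.74, 0.67 and -0.42, and none passed. The 4 that rose were 2 D-type cyclins, their partner Cdk4, and Cdk1. Ccnd1, a D-type cyclin, was at 1.59 to 2.77 CP10K (median 2.1) in progenitor-like and 0.0759 to 0.837 (median 0.205) in enterocyte-like cells (log2 difference 2.37, SE 0.49, adjusted p = 0.0015), and its partner kinase Cdk4 1.02 to 3.31 (median 2.42) and 0.0733 to 0.855 (median 0.246; log2 difference 2.14, SE 0.50, adjusted p = 0.0047). Cdk1, the mitotic kinase, was at 1.28 to 2.03 CP10K (median 1.72) against 0.0459 to 0.334 (median 0.103; log2 difference 2.51, SE 0.46, adjusted p = 0.0007). None of these 3 genes overlapped between the classes. Ccnd2 also rose but overlapped, as described below. Cdk11b, a kinase tied to transcription and splicing, fell: it was at 0.184 to 0.749 CP10K (median 0.504) in progenitor-like and 0.681 to 4.39 (median 3.36) in enterocyte-like cells (log2 difference -2.10, SE 0.54, adjusted p = 0.0086). It averaged 8.23 CP10K in the enterocyte-like cluster with a median of 1515.5 UMIs. In those with medians of 9771 and 11664 UMIs it averaged 0.743 and 0.909, against 0.507 in progenitor-like cells. The part of depth in this split was not tested. Cdk18, of the PCTAIRE kinase family, was at 0 to 0.435 CP10K (median 0.247) against 0.719 to 2.31 (median 1.91; log2 difference -2.25, SE 0.61, adjusted p = 0.012), and its call was lost when any 1 mouse was left out (adjusted p 0.055 to 0.13). Log2 differences of Cdk7, Cdk8, Cdk12 and Cdk13, kinases that act on RNA polymerase II or the Mediator complex, were 0.56, -1.10, -1.42 and -0.01, and none passed.

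Of 10 genes of HMG proteins, H2A variants and prothymosin, 7 rose. Hmgb2, a DNA-bending HMG box protein, in progenitor-like cells was 5.89, 6.74 and 6.82 CP10K in the anterior samples of mice 1, 2 and 3 and 4.56, 7.47 and 4.17 in the posterior ones, and it was at 0.255 to 1.06 (median 0.462) in enterocyte-like cells (log2 difference 3.09, SE 0.51, adjusted p = 0.00032). Hmgn1, which binds nucleosomes, rose too (log2 difference 2.04, SE 0.54, adjusted p = 0.011), as did Hmgb1, whose ranges overlapped (log2 difference 1.55, SE 0.51, adjusted p = 0.036). The call of Hmgb1 was lost when any 1 mouse was left out (adjusted p 0.14 to 0.17). Ptma, prothymosin alpha, an acidic histone-binding protein, was 18.4, 13.3 and 15.8 CP10K in the anterior samples of mice 1, 2 and 3 and 14.4, 13.2 and 9.83 in the posterior ones. In enterocyte-like cells Ptma was at 0.455 to 4.49 (median 1.07), with the highest value in the anterior sample of mouse 1, and its adjusted p was the smallest of the members (log2 difference 3.21, SE 0.40, adjusted p = 2.2e-05). Among H2A variants, H2afz, the gene of H2A.Z, was at 3.83 to 6.39 CP10K (median 4.65) against 0.473 to 0.945 (median 0.756; log2 difference 2.5, SE 0.48, adjusted p = 0.0009). H2afx, whose product is phosphorylated at DNA breaks, was at 1.25 to 4.22 CP10K (median 2.12) against 0.0655 to 0.388 (median 0.146; log2 difference 2.76, SE 0.56, adjusted p = 0.0014), and H2afv, a second H2A.Z gene, 7.27 to 13.9 (median 9.09) against 2.57 to 4.39 (median 3.82; log2 difference 1.31, SE 0.42, adjusted p = 0.033). The call of H2afv was lost without any 1 mouse (adjusted p 0.056 to 0.26). H2afj and H2afy did not pass (0.59 and 0.61), nor did the 3 SMC genes, of cohesin, condensin and the SMC5/6 complex: Smc1a 1.04, Smc4 1.00 and Smc6 0.18.

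Of 7 tubulins, the alpha-tubulin Tuba1b and the beta-tubulin Tubb5 rose. Tuba1b was at 3.71 to 5.23 CP10K (median 4.11) in progenitor-like and 0.0869 to 0.549 (median 0.304) in enterocyte-like cells (log2 difference 3.27, SE 0.51, adjusted p = 0.00022), and Tubb5 4.0 to 6.99 (median 5.65) and 0.238 to 1.0 (median 0.344; log2 difference 3.24, SE 0.48, adjusted p = 0.00016). The other tubulins tested had log2 differences from -1.68 (Tubal3) to 1.06 (Tubb4b), and none passed. Ran, the GTPase, was at 2.97 to 4.46 CP10K (median 4.0) against 0.339 to 0.952 (median 0.671; log2 difference 2.34, SE 0.52, adjusted p = 0.0032), and its binding protein Ranbp1 2.46 to 4.76 (median 3.22) against 0.136 to 1.13 (median 0.504; log2 difference 2.32, SE 0.52, adjusted p = 0.0032). Neither gene of the Ran pair overlapped between the classes. Hmgb1, Hmgn1, Ptma, Ran, H2afz and the tubulins have close copies or processed pseudogenes, among which 3′ reads can be split or lost, so their absolute levels are uncertain.

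**Figure D2:**
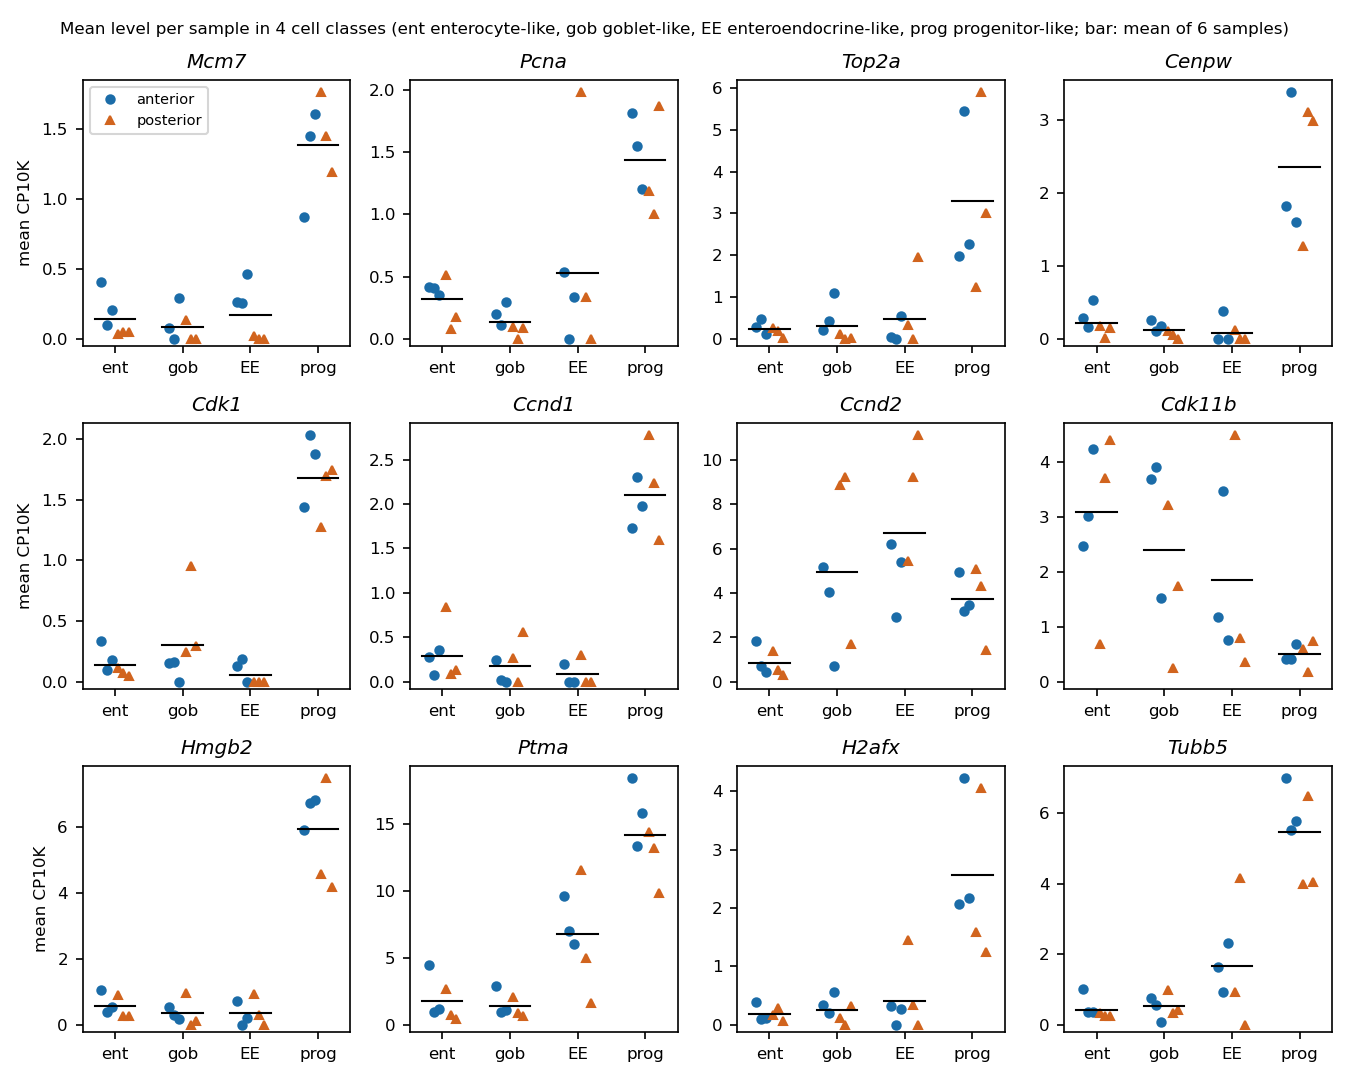
Mean level (CP10K) of 12 members in the 4 classes, with 1 point per sample (circles anterior, triangles posterior) and a bar at the mean of the 6. For Ptma, Hmgb2 and Tubb5 the 6 progenitor-like points lie above all 6 enterocyte-like points, and for Ccnd2 the goblet-like and enteroendocrine-like points reach as high as the progenitor-like ones.

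Compared with goblet-like cells, 27 of 47 members were higher in progenitor-like cells and 2 were lower (limma, Benjamini-Hochberg), where 32.4% of all genes passed, 24.3% higher and 8.1% lower. The members' median log2 difference was 1.57, against 0.37 over all genes. This excess of higher genes depended on the scaling: with median-ratio scaling the median of all genes was -0.44, 411 genes were higher and 965 lower in place of 1289 and 430, and 17 members were higher and 5 lower. The genes higher than in goblet-like cells included the 3 replication genes, all 4 HMG genes and 5 of 7 tubulins. The minimum for testing was a mean of 0.2 CP10K over the profiles of all classes. Tuba1b, Cdk4, Hmgn1, Mcm6, Mcm7 and Cenpw averaged under 0.2 CP10K in both goblet-like clusters. They could be tested against goblet-like cells only because they were higher in another class. Other members were under 0.2 CP10K in 1 goblet-like cluster only. Pcna and Ranbp1, for example, averaged 0.101 and 0.15 CP10K in that of 491 cells and 0.23 and 0.24 in that of 135. How many of the calls rest on members under the minimum in goblet-like cells as a whole was not counted. Hmgb2 was at 0 to 0.964 CP10K (median 0.224) in goblet-like cells (log2 difference 3.72, SE 0.51, adjusted p = 1.3e-05), Tuba1b 0 to 0.446 (median 0.0882; log2 difference 3.86, SE 0.51, adjusted p = 7.7e-06) and Ptma 0.629 to 2.86 (median 1.01; log2 difference 3.29, SE 0.40, adjusted p = 4.2e-06), all below the progenitor-like ranges. Tubb4b, a beta-tubulin of many tissues, and Cenpv, a centromere protein, were higher than in goblet-like cells (2.37 and 1.88), with log2 differences from enterocyte-like cells of 1.06 and 0.87 that did not pass. Cdk8, the kinase of the Mediator complex, went the other way: it was at 0.292 to 1.28 CP10K (median 0.788) in progenitor-like and 2.33 to 5.6 (median 4.08) in goblet-like cells (log2 difference -2.07, SE 0.53, adjusted p = 0.0048). Cdk11b was the other member that was lower than in goblet-like cells (-1.62). Both differences lay in the goblet-like cluster of 491 cells, with a median of 1851 UMIs. There Cdk8 averaged 5.72 and Cdk11b 3.56 CP10K. In the goblet-like cluster of 135 cells (median 9671 UMIs) they averaged 0.74 and 0.57, against 0.79 and 0.51 in progenitor-like cells. These are means of samples with at least 10 cells, and the part of depth in this split was not tested. The comparisons with enterocyte-like and goblet-like cells share the progenitor-like samples.

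**Figure D3:**
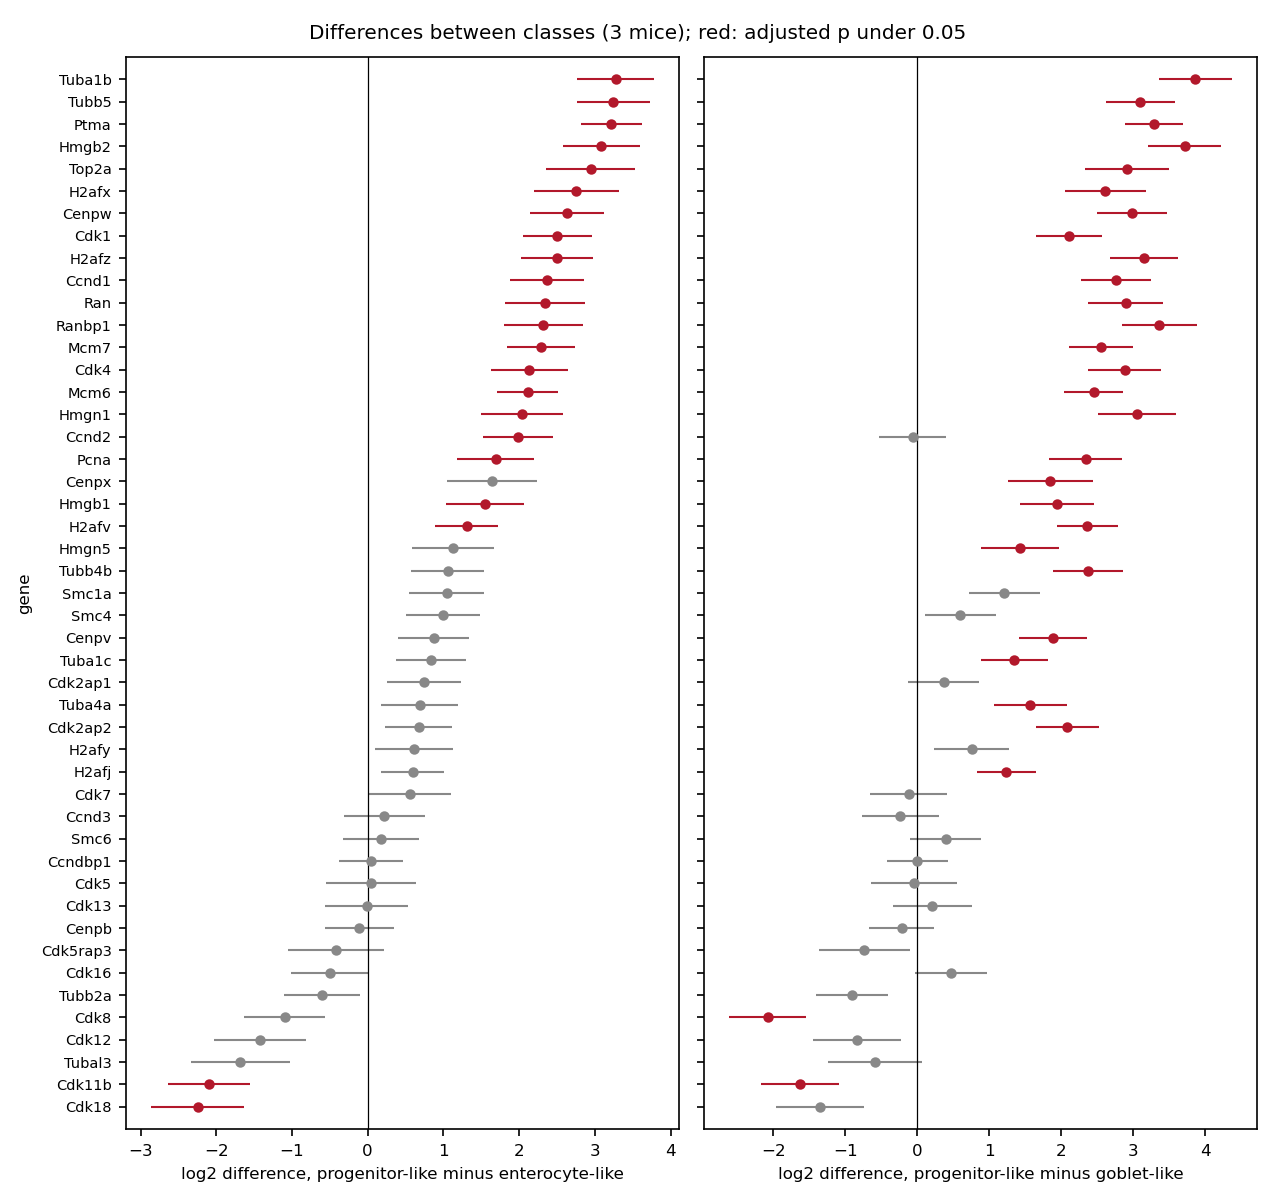
Log2 difference of each member between progenitor-like and enterocyte-like cells and between progenitor-like and goblet-like cells (x axes), for 47 members ordered by the first, with bars of 1 SE from limma and calls in red. Tuba1b, Tubb5, Ptma and Hmgb2 lie furthest above 0 against enterocyte-like cells, and Cdk18 and Cdk11b furthest below.

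Few members passed between goblet-like and enterocyte-like cells. Of 47, 1 was higher and 1 lower in goblet-like than in enterocyte-like cells, where 13.5% of all genes passed, 2.75% higher and 10.7% lower (146 and 570 genes, or 265 and 83 with median-ratio scaling). The members' median log2 difference was -0.34, against -0.48 over all genes. The gene that was higher was Ccnd2, a D-type cyclin like Ccnd1. In goblet-like cells Ccnd2 was 5.15, 4.03 and 0.692 CP10K in the anterior samples of mice 1, 2 and 3 and 8.85, 9.25 and 1.68 in the posterior ones. The 2 samples of mouse 3 were the lowest of these 6. In enterocyte-like cells it was at 0.284 to 1.81 (median 0.627), with the highest value in the anterior sample of mouse 1 (log2 difference 2.05, SE 0.46, adjusted p = 0.0044). Without mouse 1 or without mouse 2 no member passed in this comparison, and the shares of all genes called in those fits are not given here. The gene that was lower was Cdk2ap2, a Cdk2-associated protein (log2 difference -1.41, SE 0.44, adjusted p = 0.035); leaving out any 1 mouse, or the enterocyte-like cluster that held most such cells of mouse 1, ended that call.

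Enteroendocrine-like cells had 5 members higher and 3 lower than enterocyte-like cells, where 15.1% of all genes passed, 3.05% higher and 12% lower, and the members' median log2 difference was -0.21, against -0.29 over all genes. Ccnd2 was the member with the largest difference: in enteroendocrine-like cells it was 6.22, 2.91 and 5.42 CP10K in the anterior samples of mice 1, 2 and 3 and 5.42, 9.22 and 11.1 in the posterior ones (log2 difference 2.61, SE 0.46, adjusted p = 0.00055). The posterior sample of mouse 3 has 4 such cells, under the minimum of 5, and did not enter this fit. Ptma (log2 difference 2.29, SE 0.40, adjusted p = 0.00051), Hmgn1 (2.23), Tubb5 (1.78) and Cdk2ap1 (1.45) were higher too. In the 5 samples used, Ptma was at 4.99 to 11.6 CP10K (median 7.01) in enteroendocrine-like cells, above every enterocyte-like value, and it was at 1.64 in the sample left out. Cdk18 (-1.93), H2afv (-1.65) and Smc1a (-1.46) were lower. The replication genes Mcm6, Mcm7 and Pcna had log2 differences of -0.77, 0.32 and 0.28 and did not pass, and those of Top2a and Cdk1 were -0.09 and -0.43. Enteroendocrine-like cells numbered 4 to 8 in 4 of the 6 samples, and with a minimum of 10 cells 3 members passed. Without mouse 2 only Ccnd2 and Ptma passed, and these passed without any 1 mouse. Shares of all genes called in these smaller fits are not given here. With median-ratio scaling 5 members were higher and 1 lower, beside 193 and 341 of all genes in place of 162 and 639. Ccnd2 did not pass between progenitor-like and goblet-like cells (log2 difference -0.06, SE 0.46, adjusted p = 0.93), unlike Ccnd1, which was higher in progenitor-like than in goblet-like cells (log2 difference 2.76, SE 0.49, adjusted p = 0.00019) and was at 0 to 0.30 CP10K (median 0) in enteroendocrine-like cells. In tuft-like cells, of which the samples held 1 to 16 and which were not tested, H2afj was 22.1 CP10K in the posterior sample of mouse 1, the only one with 10 or more (16 cells), against 8.75 to 11.7 (median 9.57) in progenitor-like cells.

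Genes of the same pathways that are not members were read from 4 lists, whose counts stand beside 9.59% of all genes higher and 9.65% lower in progenitor-like than in enterocyte-like cells. Against enterocyte-like cells, 5 of 8 measured replication genes (of 43 listed) were higher in progenitor-like cells and none was lower. The leading ones were Dut, which removes dUTP, at 2.05 ± 0.365 CP10K against 0.116 ± 0.141 (SD, n = 3 mice, log2 difference 2.88), Dnmt1, the maintenance DNA methyltransferase (2.38), and Rnaseh2c, a subunit of RNase H2 (2.13). Of 10 measured mitosis genes (of 56), 9 were higher and none lower, led by Ube2c, the ubiquitin-conjugating enzyme of the anaphase-promoting complex (2.94), Birc5, survivin (2.80), and Cdca3 (2.75). Of 26 chromatin assembly genes (of 41), 14 were higher and none lower. Npm1, a nucleolar histone chaperone, was at 10.7 ± 2.47 CP10K against 1.35 ± 0.579 (log2 difference 2.87), followed by Rcc2 (2.22) and Rangap1, the GTPase activator of Ran (2.08). Of 11 CDK inhibitors and related brakes on the cycle (of 18), none was higher and 1 was lower, Cdkn1a, the p21 inhibitor, at 0.817 ± 0.45 CP10K in progenitor-like and 2.51 ± 0.0696 in enterocyte-like cells (log2 difference -1.67, limma adjusted p = 0.046). Median log2 differences of the 4 lists were 1.84, 1.96, 1.41 and -0.73, against -0.07 over all genes. Dut, Dnmt1, Birc5 and Rangap1 had enterocyte-like means of 0.116, 0.137, 0.162 and 0.173 CP10K, under the minimum of 0.2 CP10K. They could be tested only because they were higher in another class. How many other listed genes this holds for was not counted. The 1 of 11 brakes that was lower is near the share of all genes. With median-ratio scaling 4, 7, 5 and 0 genes of the lists were higher and none was lower. Against goblet-like cells, where 24.3% of all genes were higher and 8.1% lower, the counts of higher and lower genes were 6 and 0, 10 and 0, 13 and 0, and 1 and 2, and with median-ratio scaling 4 and 0, 6 and 0, 7 and 1, and 0 and 6. The brake list's 1 higher gene was E2f4, a pocket-protein-bound repressor (1.45), whose goblet-like mean of 0.122 CP10K was under the minimum. Its 2 lower genes were Gadd45b, a stress-response gene (-2.14), and Btg2, an antiproliferative gene (-1.35).

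Because progenitor-like cells were the most deeply sampled, shares of cells with a UMI were compared after thinning each cell to 1000 UMIs, which left out 212 shallower cells of the 2043. Top2a was detected in 17.6% (36 of 204 cells, Wilson interval 13 to 23.5%) of progenitor-like cells, 1.47% (12 of 816 cells, Wilson interval 0.843 to 2.55%) of enterocyte-like and 0.893% (5 of 560 cells, Wilson interval 0.382 to 2.07%) of goblet-like cells. Before thinning these shares were 45.1%, 4.96% and 4.15%. Intervals here cover counting error only. Hmgb2 was found in 35.8% (73 of 204 cells, Wilson interval 29.5 to 42.6%) of progenitor-like and 4.53% (37 of 816 cells, Wilson interval 3.31 to 6.19%) of enterocyte-like cells (84.3% and 17.1% before thinning), and Ptma in 74.5%, 11.5%, 15% and 38.2% of progenitor-, enterocyte-, goblet- and enteroendocrine-like cells. Ccnd2 was found in 31.6% (177 of 560 cells, Wilson interval 27.9 to 35.6%) of goblet-like, 29.4% (60 of 204 cells, Wilson interval 23.6 to 36%) of progenitor-like, 24.5% (25 of 102 cells, Wilson interval 17.2 to 33.7%) of enteroendocrine-like and 4.66% (38 of 816 cells, Wilson interval 3.41 to 6.33%) of enterocyte-like cells. These shares pool samples of unequal size, the samples of mouse 1 giving 243 and 280 of the 626 goblet-like cells. With samples of at least 5 cells weighted equally, the Ccnd2 shares were 27.8% ± 17.4 in goblet-like, 23.1% ± 14.1 in progenitor-like, 27.9% ± 14.1 in enteroendocrine-like and 5.79% ± 4.43 in enterocyte-like cells (SD over 5 or 6 samples), so the first 3 classes lay within each other's spread. The same mean for Top2a was 22.3% ± 16.5 in progenitor-like, 1.67% ± 0.993 in enterocyte-like and 0.928% ± 1.51 in goblet-like cells. In the limma fit on cells thinned to 1000 UMIs, 14 members were higher and 1 lower in progenitor-like than in enterocyte-like cells. Of the 22 calls made without thinning, 15 held, and all 22 kept their direction. The share of all genes called after thinning is not given here, so this count has no background beside it.

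Within the progenitor-like class, cells with a Top2a UMI also held more RNA of a subset of members. For this description 193 of the 204 cells were thinned to 5000 UMIs, of which 77 had a Top2a UMI, from 3 in the posterior sample of mouse 3 to 25 in the anterior sample of mouse 1. Their median depth before thinning was 12668 UMIs, against 11092 in cells without. Of the 35 other members of at least 0.5 CP10K, 11 (31.4%) were higher in cells with Top2a in 6 of 6 samples, as were 2.13% of all 3053 genes of that level; lower in 6 of 6 were 0 of the members and 69 of all genes. Leaving out the posterior sample of mouse 3, 13 of the 35 members and 4.42% of all genes were higher in the other 5 samples. H2afx was 5.32 ± 2.24 CP10K in cells with a Top2a UMI and 0.854 ± 0.509 in cells without (mean ± SD over 6 samples, median log2 difference 2.14). Cdk1 was 3.06 ± 0.603 CP10K in cells with a Top2a UMI and 0.692 ± 0.472 in cells without (1.70), and Tubb5 8.89 ± 2.46 CP10K in cells with a Top2a UMI and 3.07 ± 0.819 in cells without (1.42). Tuba1c (1.45), Hmgb2 (0.96), Tuba1b (0.94), Cenpw (0.67), H2afz (0.51), Ran (0.49), Hmgn1 (0.46) and Ptma (0.45) were the others higher in all 6. The 3 replication genes varied among samples: Mcm7 was higher with Top2a in 5 of 6 samples (median log2 difference 0.66), and the median log2 differences of Mcm6 and Pcna were 0.00 and -0.78. Pcna was 0.958 ± 0.557 CP10K in cells with a Top2a UMI and 2.06 ± 1.26 in cells without. The G1 genes Ccnd1 (-0.09), Ccnd2 (0.11) and Cdk4 (0.06) were not higher in all 6. Cells of 1 sample are not replicates and no test was run on them.

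**Figure D4:**
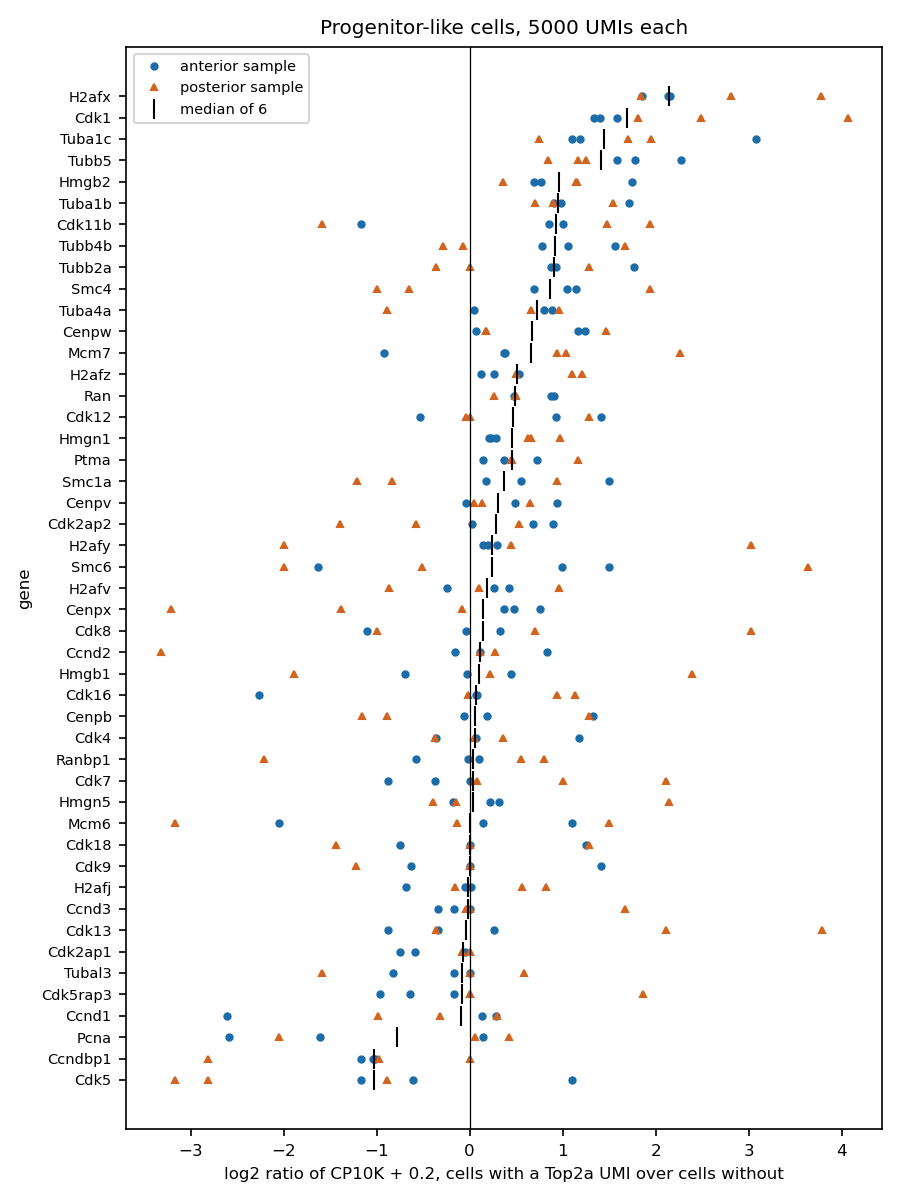
Median log2 difference over the 6 samples between progenitor-like cells with and without a Top2a UMI, for each member (y axis), with 1 point per sample and a tick at the median. H2afx, Cdk1, Tuba1c and Tubb5 have the largest medians among members that were higher in all 6 samples, and the points of Pcna and Ccnd2 fall on both sides of 0.

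No member passed the test between anterior and posterior jejunum in progenitor-like, enterocyte-like or goblet-like cells. In progenitor-like cells 0 of 44 members passed, as did 0% of 4891 genes (limma, Benjamini-Hochberg), and 3 members and 244 genes had an unadjusted p under 0.05. The members' log2 differences, anterior minus posterior, ran from -1.16 to 1.23 with a median of 0.01, against 0.04 over all genes. In enterocyte-like cells 0 of 41 members passed (0% of 4996 genes), with 1 member and 199 genes under an unadjusted p of 0.05, and in goblet-like cells 0 of 38 passed (0.0235% of 4262 genes), with 1 member and 135 genes under it. Top2a in progenitor-like cells was 3.23 ± 1.92 CP10K in the anterior and 3.38 ± 2.35 in the posterior samples (SD, n = 3 mice), a log2 difference of 0.03 with an SE of 0.48. Hmgb2 was 6.48 ± 0.513 CP10K in the anterior and 5.4 ± 1.8 in the posterior samples and Ptma 15.9 ± 2.56 CP10K in the anterior and 12.5 ± 2.39 in the posterior samples. The anterior and posterior ranges of Top2a, Hmgb2 and Ptma overlapped. Within mice, Ptma was higher in the anterior sample in 3 of 3 mice in progenitor-like, enterocyte-like and goblet-like cells, and with the mouse as block its limma adjusted p was 0.81, 0.54 and 0.94. Of 48 members, 6, 15 and 7 were higher in the anterior sample of all 3 mice in these classes, and 5, 4 and 8 in the posterior. The share over all genes was not counted. In enterocyte-like cells 30 of the 41 members tested lay above 0 (median 0.24), against 58.6% of all genes (median 0.09). The 3 members under an unadjusted p of 0.05 were Smc6 (-1.16), Cdk2ap1 (1.23) and Cenpb (0.91), each with a limma adjusted p of 0.93. Smc6 was 0.281, 0.197 and 0.221 CP10K in the anterior samples of mice 1, 2 and 3 and 0.825, 1.45 and 0.329 in the posterior ones. The change with region of the progenitor-like minus enterocyte-like difference was tested as well. In limma 0 of 46 members passed this interaction (0% of 5361 genes), and 3 members and 204 genes had an unadjusted p under 0.05. Of these 46 members, 12 lay above 0 (median -0.29, anterior minus posterior), against 48.8% of all genes (median -0.02). With 3 mice, differences well above their errors did not pass either: those of Smc6, Cdk2ap1 and Cenpb had SEs of 0.48, 0.52 and 0.42. Regional differences of such size could have been missed. These SEs are from the fit without the mouse block, and with the block the SE of Top2a was 0.30.

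**Figure D5:**
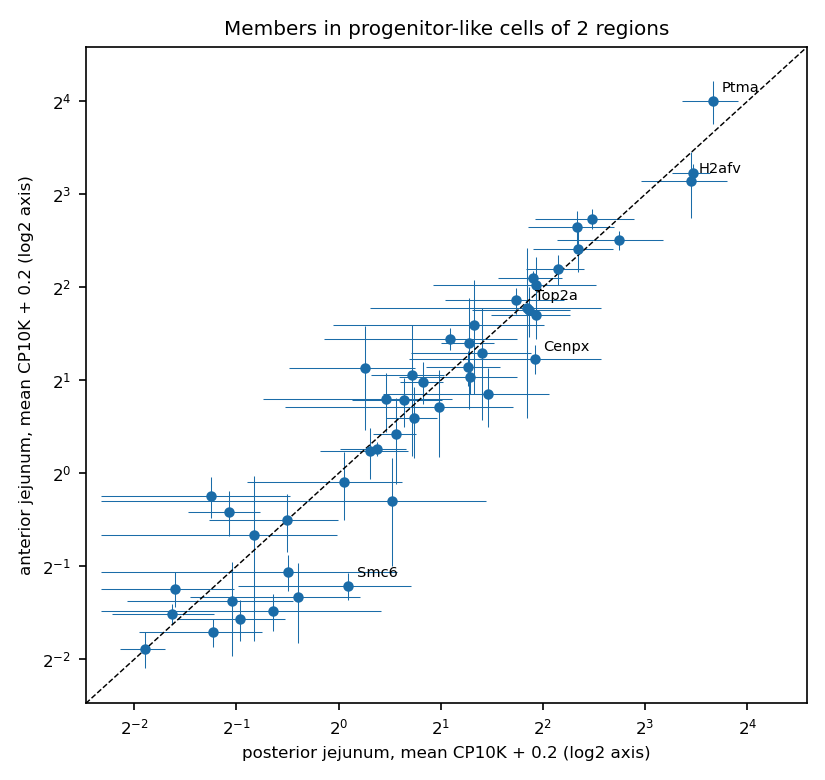
Mean level of each member in progenitor-like cells of the posterior (x axis) and anterior jejunum (y axis), as CP10K + 0.2 on log2 axes, with bars of 1 SD over 3 mice and a dashed line of equal levels. Ptma and Top2a lie near the line, and Smc6 lies on its posterior side.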

How the data were processed

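The authors deposited 1 table per region of log2 normalised counts per gene and cell (6839 genes anterior, 5831 posterior), in which values below 0 occur. Per the submitters' processing notes, the build was GRCm38 (mm10), and the tools named are STAR 2.6.1b, cutadapt 1.18, bcl2fastq, R 3.5.1 and UMI-tools 1.0.0. From the steps between values, the UMI counts of each cell were recovered and 100% were whole within a tolerance of 0.01. Genes in both tables held 98.0% of UMIs. No cell was in the files with identical values under 2 names, although the 186 well barcodes recurred across samples. A well label, neg or pos, has no stated meaning and was not used.

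Counts were scaled to CP10K over shared genes. Clusters came from scanpy 1.11.5 (1500 variable genes, 25 components, Leiden resolution 1) without the cell cycle genes, and were named from marker lists. No doublet caller was run on these singly sorted cells. With all genes allowed, 95.5% of cells and 93.6% of progenitor-like cells kept their class. The class of a cluster rests on genes that vary with the members, so the classes are not independent of the cycle.

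Differences were tested with limma 3.58.1 (R 4.3.3, eBayes with trend) on log2(mean CP10K + 0.2), 1 value per mouse (the mean of its regions, each with at least 5 cells of the class), genes of at least 0.2 CP10K, Benjamini-Hochberg over all genes tested. Fold changes on this scale understate those of low genes. Of the 20 higher members, 16 had an enterocyte-like mean of at least 0.2 CP10K, and 4 passed the minimum through other classes. The 2 samples of a mouse are paired by the labels. Deviations of paired samples from their region's mean correlated at 0.564, 0.117 and 0.375 in enterocyte-like, 0.27, 0.0446 and 0.0626 in goblet-like and 0.287, 0.0426 and 0.0645 in progenitor-like cells for mice 1, 2 and 3. Regional tests used no block, with the mouse block as an alternative.

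The members, lists, classes and tests were chosen with earlier results of these data known. Named members were those called between progenitor-like and enterocyte-like cells or regions (at most 25), the 2 most abundant of each role, and a list of well-known cycle genes; of the other lists, the 3 largest changes among the genes called were named. Other members, the tuft-like values and the comparison by Top2a UMI were chosen after values were seen. The count recovery and the class fit were run on simulated data, the fit for the progenitor-like minus enterocyte-like comparison only. That simulation gave all classes the same depth per cell, unlike the data. The other class comparisons and the regional tests were not checked in this way. Proteins were not analysed here.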

Additional observations from a re-analysis of the deposited data

Results flagged for a closer look

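The anterior table held 14 further genes that match the name rule but not the requirement of both tables, and all lay above the level that 3 UMIs of the 1551311 in anterior progenitor-like cells would give, 0.0193 CP10K. The values are means over the 3 anterior samples of progenitor-like cells, in CP10K with SD, and were not tested. The proliferation marker Mki67 was at 1.91 ± 0.572 (0.33 ± 0.0466 in enterocyte-like cells), the mitotic cyclins Ccna2 at 1.46 ± 0.693 (0.238 ± 0.213) and Ccnb2 at 1.33 ± 0.158 (0.119 ± 0.0819), and Cenpa, the histone of the centromere, at 1.53 ± 0.337 (0.241 ± 0.106). The helicase subunit Mcm5 was at 1.04 ± 0.338 (0.121 ± 0.103), the CDK-binding proteins Cks2 at 0.971 ± 0.0793 (0.0486 ± 0.0582) and Cks1b at 0.639 ± 0.182 (0.117 ± 0.0689), and the G1 kinase Cdk6 at 1.24 ± 0.761 (0.0833 ± 0.068). Stathmin, Stmn1, was at 0.54 ± 0.113 (0.0779 ± 0.099), Hmgb3 at 0.435 ± 0.152 (0.19 ± 0.144), and the cohesin gene Smc3 at 0.543 ± 0.198 (0.381 ± 0.21). Cdk10 was at 1.02 ± 1.32 (0.438 ± 0.244), with its high value in mouse 2 alone. The pseudogene Hmgb1-ps7 was at 0.403 ± 0.34 (0.104 ± 0.135). Tuba1a went another way: it was at 0.105 ± 0.0825 in progenitor-like cells and 0.0329 ± 0.0362 in enterocyte-like cells, but at 3.24 ± 1.3 in enteroendocrine-like cells of all 3 anterior samples.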

How the results depend on the processing

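Of the members called between progenitor-like and enterocyte-like cells, all 22 kept their direction under every alternative run, and the count was 8 to 19 when 1 mouse was left out. The 29 called against goblet-like cells kept theirs except H2afj, which went from 1.24 to -0.015 with median-ratio scaling. Between goblet-like and enterocyte-like cells 2 members were called, and 6 with CP10K of summed UMIs and 5 with at least 10 cells. The count was 1 with median-ratio scaling, thinning, either region alone or without the mixed enterocyte cluster, and 0 to 1 without 1 mouse. Between enteroendocrine-like and enterocyte-like cells the count was 8, and 4 with thinning, 3 with at least 10 cells, 4 and 3 in the anterior and posterior samples alone, and 2 to 5 without 1 mouse. Without the replicate block of mice the 4 counts, in the report's order, were 21, 28, 2 and 7, and with the mouse block the regional tests still called 0 members. Apart from median-ratio scaling, the shares of all genes called under the alternatives are not given here, so the member counts have no background. Small log2 differences turned: Cenpb against enterocyte-like cells was -0.11, between -0.37 and 0.18 without 1 mouse, and 0.26 in anterior samples, and against goblet-like cells went from -0.22 to 0.0045 in anterior samples. Against goblet-like cells, Ccnd2 was -0.06, between -0.55 and 0.25 without 1 mouse (0.11 without mouse 1), and 0.55 in anterior samples, and Smc4 went from 0.60 to -0.25 with median-ratio scaling, -0.080 with thinning and -0.17 in anterior samples. Shares of progenitor-like cells with Top2a and Hmgb2 were 45.1% and 84.3% without thinning, and 5 rather than 9 promoters held CCAAT and CHR on the gene's strand. The cause of these changes was not tested, apart from the UMIs that thinning removes and the strand left out. The alternatives of leaving out the mixed enterocyte cluster and leaving out cells of over 100 Igkc CP10K, and the Top2a count without the posterior sample of mouse 3 were chosen after seeing the data. Enteroendocrine-like values rest on 4 to 58 cells per sample, and low members such as Cdk12 on few UMIs.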
